A study of Mus musculus with 40 samples.

Results

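Hematopoietic progenitor cells of newborn mice labelled FLT3-ITD/NUP98-HOXD13 were compared with those of wild-type newborns by RNA sequencing. The comparison rests on 8 of the 36 libraries that have a column of counts (40 samples in the labels). These are the 4 columns of the table of birth, postnatal day 0 or P0, whose names match the samples labelled Flt3-ITD with NHD13 and the 4 that match the wild type. Each labelled double-mutant library is numbered 1 to 4 as in the labels. The source is given as hematopoietic progenitor or MPP, the multipotent progenitors of the blood lineages, and the labels name only genotype and age. Strain, zygosity, tissue of origin, sorting gates, the promoter that drives NHD13 and whether each library comes from its own animal are not given in the sources used here. The p-values therefore rest on the spread among the libraries, which may be technical. Another 4 libraries labelled Flt3-ITD at P0 entered the same fit and serve as a comparison. Libraries of Flt3-ITD with NHD13 and of the wild type at day 14 (P14), 4 each, serve for the comparison of ages. The fit of both ages also holds P14 libraries labelled FLT3-ITD, NUP98-HOXD13 alone, Runx1-HET and FLT3-ITD/Runx1-HET, 4 each, which add to its estimate of the spread. No allele or treatment is named as shared by all groups.

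FLT3 is a cytokine receptor of early blood progenitors, and an internal tandem duplication (ITD) in it gives a kinase that signals without ligand, mainly through STAT5 and the RAS-MAPK pathway. NUP98-HOXD13, here NHD13, is a leukemia fusion that joins part of a nuclear pore protein to the DNA-binding homeodomain of HOXD13. HOX genes encode homeodomain transcription factors that lie in the A, B, C and D clusters. HOXA genes and the partner proteins PBX3 and MEIS1 are high in stem and early progenitor cells and in many acute myeloid leukemias, and are shut off as cells mature. Progenitors at birth still carry fetal features, such as LIN28B, an RNA-binding protein of the fetal program.

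The labelled double-mutant libraries held 17.3 to 30.9 M counts, the wild type 23.6 to 38.8 M and Flt3-ITD 28.4 to 39.3 M. Progenitor markers were present in all of them: Kit, the stem cell factor receptor, stood at 447 to 942 CPM (counts scaled to library size) in the labelled double-mutant libraries and 790.4 to 1042 in the wild type. Double-mutant libraries 2 and 4 stood apart on Socs2 and on genes that rise with Flt3-ITD at P14. Socs2, a STAT5-induced feedback inhibitor of cytokine signalling, had 72.7, 7.42, 102 and 12.3 CPM in double-mutant libraries 1 to 4, 19.9, 14.2, 20.3 and 14.8 in the wild type and 79.7, 98.1, 82 and 81.5 in Flt3-ITD. Libraries 1 and 3 thus lay far above the wild type, and libraries 2 and 4 below every wild-type library. At P14 the median Socs2 level was 10.1 CPM in the wild type, 222 in Flt3-ITD, 4.6 in NHD13 alone and 185 in Flt3-ITD with NHD13, where it ranged from 145 to 213. Over the 20 genes with the highest rise in Flt3-ITD at P14 among those that also rose in Flt3-ITD with NHD13 there, the median log2 difference from the P0 wild-type mean was 0.71, -0.12, 0.84 and -0.62 in double-mutant libraries 1 to 4. It was 0.89 to 1.08 in the Flt3-ITD libraries. Over the 20 genes with the greatest fall, chosen likewise, it was -1.19, 0.19, -0.67 and -0.46 in double-mutant libraries 1 to 4, -0.16 to 0.24 in the wild type and -1.14 to -0.42 in Flt3-ITD. There library 2 lay within the wild-type range and library 4 within that of Flt3-ITD. All 4 double-mutant libraries carried Hoxd13 counts. Whether libraries 2 and 4 carry Flt3-ITD was not tested, so the group is called by its label throughout. Results are also given without these 2 libraries, a choice made after seeing the data. For the genes of both sets of 20, the values without these libraries are therefore descriptions. The sets include Socs2, Cish, Irf8, Ly86, Tspan8, P2ry12, Trbc2, Ccr9, Cyp4b1, Wfdc2, St8sia1 and Etv5.

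**Figure D1:**
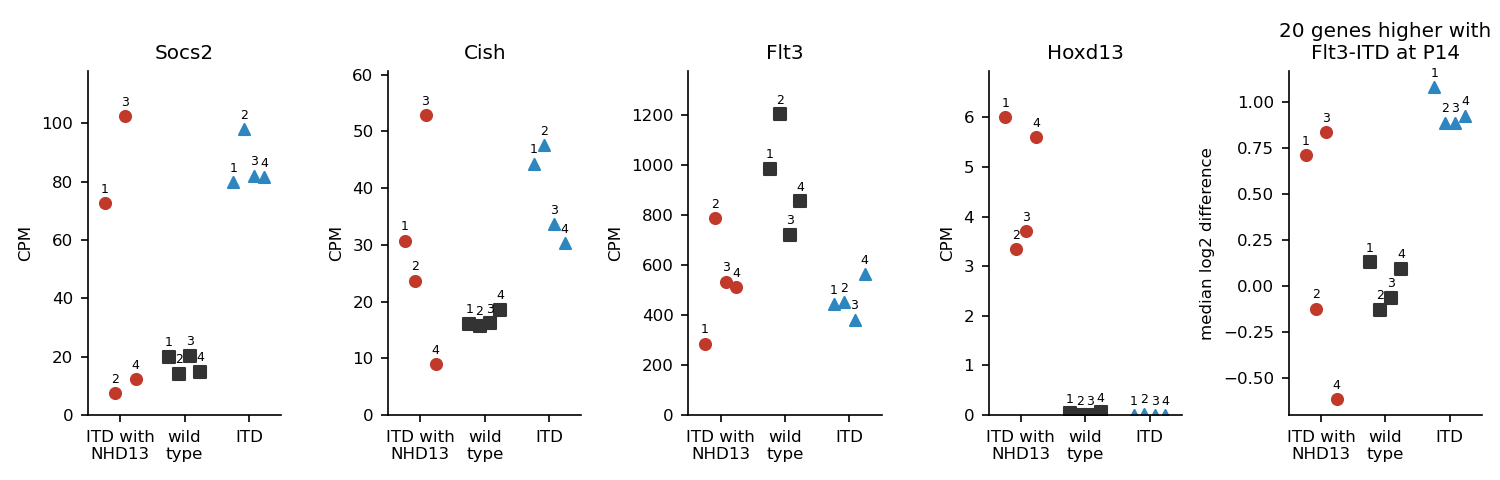
CPM of Socs2, Cish, Flt3 and Hoxd13, and the median log2 difference from the wild-type mean over 20 genes that rose with Flt3-ITD at P14, in the 12 libraries at P0 (1 point per library, numbered as in the labels). Libraries 2 and 4 labelled Flt3-ITD with NHD13 lie at 7.42 and 12.3 CPM of Socs2, against 72.7 and 102 in libraries 1 and 3, while all 4 lie above the wild type for Hoxd13.

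Other libraries also stood apart. Double-mutant library 2 was the shallowest and lay farthest out on the first principal component (-52.2, against -8.93 to 27.8 in the others). Wild-type library 2 held hepatocyte transcripts, with a summed level of 923 CPM over 9 markers against 25.9 to 100 in the other 7 libraries of the comparison, and wild-type library 3 had the highest sum of mast cell and basophil markers (9389.8 CPM, against 656 to 7025). Y-linked counts and Xist split the labelled double mutants and the wild type evenly by sex, 2 libraries each way, while all 4 Flt3-ITD libraries were male by these genes. Within groups, every pair of libraries differed beyond sampling noise, with a chi-square per degree of freedom of 25.3 to 138 over 18 pairs.

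Hoxd13, the homeobox gene of the fusion (ENSMUSG00000001819, GRCm38 chromosome 2, 74668310 to 74671599, plus strand), had 6, 3.35, 3.71 and 5.6 CPM in the labelled double-mutant libraries and 0.0354, 0, 0 and 0.0606 in the wild type. That is 420 counts against 3, a ratio of 192 with a 95% counting interval of 65.3 to 936, which covers counting error only (adjusted p = 1.26e-05). Whole-gene counts do not separate the fusion from the normal gene. Nup98, the nuclear pore gene of the fusion (ENSMUSG00000063550, GRCm38 chromosome 7, 102119398 to 102210176, minus strand), had 46.1, 54.4, 58 and 66 CPM against 35.2, 31.4, 41.4 and 29.7. Every labelled double-mutant library lay above every wild-type library, and the difference missed the threshold (log2 fold change 0.71 ± 0.2, adjusted p = 0.107). DESeq2 gave an adjusted p of 0.0316. Flt3 (ENSMUSG00000042817, GRCm38 chromosome 5, 147330741 to 147400489, minus strand) had 285, 786, 532 and 511 CPM against 983, 1202, 721 and 854, and library 2 fell within the wild-type range (log2 fold change -0.83 ± 0.24, adjusted p = 0.113). On all 4 libraries Flt3 passed by DESeq2 (adjusted p = 0.0236) and with a sex term in edgeR (adjusted p = 0.0393). Without libraries 2 and 4 the Flt3 difference was -1.2 ± 0.26, adjusted p = 0.0331, and without library 2 alone -1.09 (adjusted p = 0.0177).

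Of 14359 genes tested, 299 passed in the comparison with the wild type (2.08%), 159 higher (1.11%) and 140 lower (0.975%), by edgeR's quasi-likelihood test with Benjamini-Hochberg adjustment at 0.05. The same libraries and genes gave 552 calls with DESeq2 (3.85%), 259 higher and 293 lower. Without libraries 2 and 4 there were 259 calls, 133 higher and 126 lower. All 299 genes kept their sign there and 182 of them were still called. Log2 fold changes are given ± SE, with 4 libraries in each group. The SE was worked back from the edgeR test, as the size of the log2 fold change over the square root of the F statistic. It is approximate, and least reliable near 0 counts or for a difference near 0. The median over all tested genes was 0.02. At an unadjusted p under 0.05 there were 1615 of the 14359 tested genes, in either direction. Counts of list members at an unadjusted p below are to be read beside this share.

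HOX genes of all 4 clusters rose in the labelled double mutants, with genes of the B, C and D clusters that were near 0 in the wild type carrying the largest differences. Of 39 HOX genes in the list, 29 had any count in the P0 libraries, 19 passed the low-count filter, 11 rose and none fell. Since a gene silent in the wild type passes the filter only through the other groups, the counts over tested members are a description. The median log2 fold change of the 19 was 2.46, beside 0.02 over all tested genes, and in 13 of the 19 every labelled double-mutant library lay above every wild-type library, beside 3.37% of all tested genes. By cluster, 2 of 7 tested genes rose in HOXA, 3 of 6 in HOXB, 4 of 4 in HOXC and 2 of 2 in HOXD.

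The promoters of a gene that was near 0 in the wild type (Hoxc4) and of a gene that was on in every library (Hoxa9) are shown first, from 250 bases before to 50 after the start in RefSeq's GRCm38.p6 table, 5′ to 3′ on the gene's strand. Capitals mark CG dinucleotides, the sites of DNA methylation. Hoxc4 (chr15:103034145-103034444, plus strand) holds 9 and Hoxa9 (chr6:52227321-52227620, minus strand) holds 4, beside a median of 21 over 10571 tested genes with a promoter in the table and 15.5 over the 124 of the genes that rose. Each gene entered these medians by its promoter with the most CG dinucleotides. Methylation was not measured here. The start in the RefSeq table can differ from the end of the GENCODE gene given elsewhere, as for Hoxc4 and Lin28b.
Hoxc4: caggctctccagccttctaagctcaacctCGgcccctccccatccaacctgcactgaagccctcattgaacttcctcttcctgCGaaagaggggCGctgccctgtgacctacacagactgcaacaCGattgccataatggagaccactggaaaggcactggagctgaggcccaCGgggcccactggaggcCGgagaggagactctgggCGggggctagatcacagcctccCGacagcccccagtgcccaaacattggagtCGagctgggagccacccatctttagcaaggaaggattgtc
Hoxa9: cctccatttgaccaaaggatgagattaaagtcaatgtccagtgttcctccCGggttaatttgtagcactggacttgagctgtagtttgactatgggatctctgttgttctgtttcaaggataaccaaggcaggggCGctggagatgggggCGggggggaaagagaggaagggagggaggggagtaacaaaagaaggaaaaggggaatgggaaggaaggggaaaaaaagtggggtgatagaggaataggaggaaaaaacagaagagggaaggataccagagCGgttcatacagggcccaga
Neither stretch holds a match to TGATTNAT, a motif of HOX with PBX proteins searched on both strands.

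Within HOXC, Hoxc5 had 21.3, 30.7, 23.1 and 33.3 CPM in the labelled double mutants and 0.106, 0.127, 0 and 0.0303 in the wild type (log2 fold change 8.49 ± 0.47, adjusted p = 6.36e-08). Hoxc6 had 9.03, 11, 6.92 and 9.7 against 0, 0.0253, 0.124 and 0.0303 CPM (log2 fold change 7.66 ± 0.61, adjusted p = 2.34e-06). Hoxc4 (ENSMUSG00000075394, GRCm38 chromosome 15, 103018934 to 103036852, plus strand) had 13.5, 10.6, 11.2 and 14.6 CPM in the labelled double mutants, and its 1134 counts against 3 give a ratio of 519 with a 95% counting interval of 177 to 2520.1 (adjusted p = 4.04e-07). All 4 libraries were high for these 3 neighbours, libraries 2 and 4 included. Hoxc8 had 5.89, 2.07, 1.54 and 6.15 CPM and a single count in the wild type, a ratio of 468 with a 95% counting interval of 83.5 to 18544 (adjusted p = 2.88e-05). Hoxc9, Hoxc10 and Hoxc12 had 38, 15 and 1 counts in the labelled double mutants and 0 in the wild type, so that Hoxc9 was at least 17.4-fold and Hoxc10 at least 6.86-fold higher, against a floor of 3 counts over the group. These 3 were not tested, and Hoxc11 and Hoxc13 had no count in any P0 library. By library, Hoxc10 had 0, 4, 2 and 9 counts in the labelled double mutants, and Flt3-ITD library 2 had 7. In HOXB, Hoxb7 had 10.3, 6.14, 8.62 and 6.73 CPM against 0.0354, 0.152, 0 and 0.0303 (log2 fold change 6.92 ± 0.59, adjusted p = 4.43e-06), and Hoxb6 had 1.7, 2.07, 1.29 and 1.51 against 0.0354, 0.0253, 0.0414 and 0.0606 (log2 fold change 5.2 ± 0.7, adjusted p = 0.00057). Hoxb8 had 86 counts against 1, a ratio of 118 with a 95% counting interval of 20.6 to 4717 (adjusted p = 0.00224). The HOXB genes that rose are neighbours in the cluster.

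Next to them, Hoxb5 had 4.19, 5.41, 5.72 and 4.14 CPM against 0.707, 2.1, 0.207 and 1.43, with no overlap, and missed the threshold (log2 fold change 2.11 ± 0.61, adjusted p = 0.112). It passed by DESeq2 (adjusted p = 0.0146), which called 12 HOX genes, and with a sex term in edgeR (adjusted p = 0.0412). Its antisense transcript Hoxb5os, chosen after its values were seen, had 13, 11.7, 9.12 and 7.95 CPM against 0.637, 0.938, 0.0827 and 0.97 (log2 fold change 3.95 ± 0.46, adjusted p = 0.000165). The strand setting of the counting is not given in the sources used here, so reads of the pair cannot be told apart. Hoxb4, at 1.01 to 2.07 against 1.03 to 2.3 CPM, overlapped the wild type (log2 fold change -0.06 ± 0.39, adjusted p = 0.982), and Hoxb9 had 3 counts against 8. In HOXD, besides Hoxd13, Hoxd8 had 98 counts against 1, a ratio of 135 with a 95% counting interval of 23.6 to 5368 (adjusted p = 0.000812), and Hoxd4 had 16 against 0, at least 7.32-fold higher. Hoxd1, Hoxd3, Hoxd10, Hoxd11 and Hoxd12 had no count in any P0 library.

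HOXA genes were already on in the wild type and differed less. Hoxa9, a stem cell and leukemia HOX gene, had 114, 93, 119 and 119 CPM against 68.2, 62.2, 65.3 and 57.2 (log2 fold change 0.82 ± 0.15, adjusted p = 0.00607), and passed in 8 of 8 fits that left out 1 library of either group. Hoxa7 had 75, 131, 105 and 72.2 against 53.5, 65.8, 47.9 and 54 (log2 fold change 0.79 ± 0.18, adjusted p = 0.0347). Both were above the wild type in every library. The Hoxa7 call was lost without double-mutant library 2 or 3 or wild-type library 1, 3 or 4, with adjusted p up to 0.112, and without libraries 2 and 4 together (adjusted p = 0.0567). The other 10 HOX calls held in each of these fits. Hoxa10 had 38.2, 31.5, 41.2 and 35.1 CPM against 28.5, 30.9, 26.4 and 22.6 and missed the threshold (log2 fold change 0.43 ± 0.17, adjusted p = 0.293), and Hoxa5 overlapped (log2 fold change 0.58 ± 0.32, adjusted p = 0.576). Hoxa2, Hoxa3, Hoxa4 and Hoxb2, with 39, 175, 77 and 47 counts against 27, 142, 46 and 11, overlapped the wild type and did not pass (adjusted p = 0.766, 0.609, 0.515 and 0.293). Among genes under the filter, Hoxa6, Hoxa13 and Hoxb3 had 26, 0 and 24 counts against 25, 1 and 15, and Hoxd9 had a single count in Flt3-ITD.

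**Figure D2:**
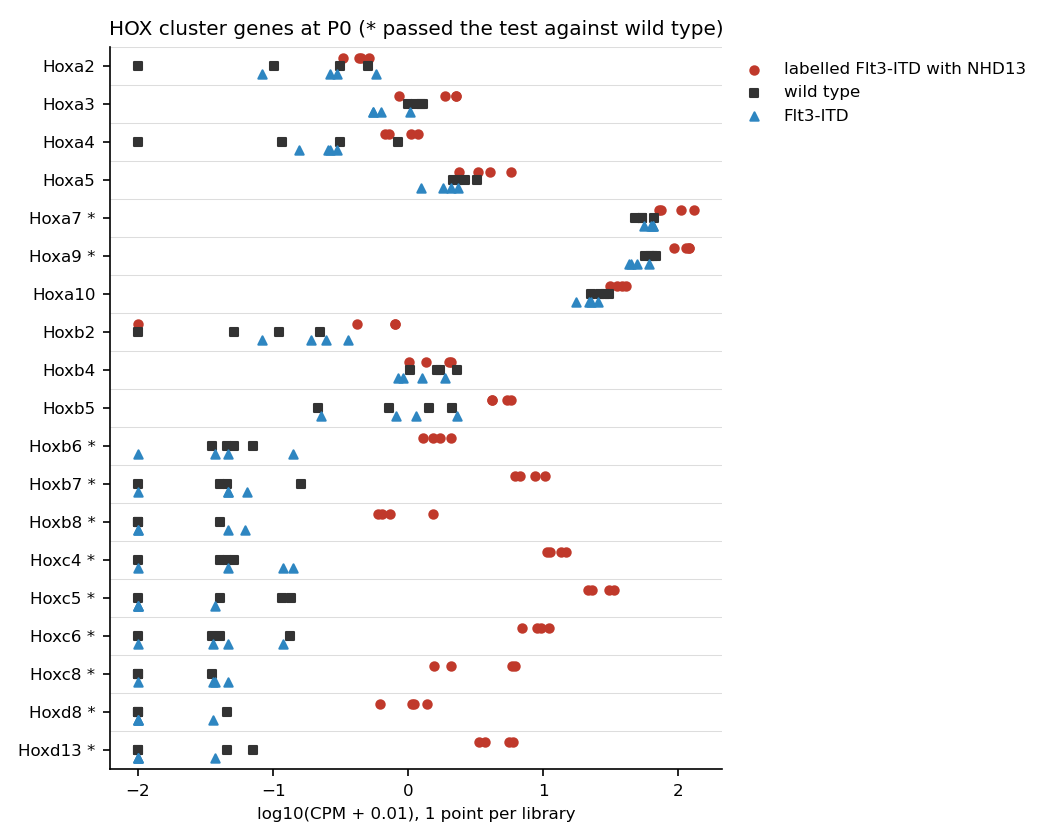
Level of the 19 tested HOX genes in the 12 libraries at P0 (x axis log10 of CPM plus 0.01, 1 point per library, an asterisk marks genes that passed against the wild type). Hoxb6 to Hoxb8, Hoxc4 to Hoxc8, Hoxd8 and Hoxd13 are near 0 CPM in the wild type and in Flt3-ITD and present in all 4 libraries labelled Flt3-ITD with NHD13, while Hoxa7, Hoxa9 and Hoxa10 are high in all 12.

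Of 9 HOX cofactor genes, 8 were tested and 1 rose (1 of 8, beside 1.11% of all tested genes that rose). Pbx3 (ENSMUSG00000038718, GRCm38 chromosome 2, 34171457 to 34373142, minus strand), which encodes a partner that binds DNA together with HOX proteins, had 53.8, 65.1, 72.5 and 65.9 CPM in the labelled double mutants, 2.12, 3.8, 2.19 and 2.76 in the wild type and 2.82, 2.27, 2.24 and 2.29 in Flt3-ITD (log2 fold change 4.55 ± 0.23, adjusted p = 2.49e-08). Libraries 2 and 4 were as high as 1 and 3. The median over the 8 cofactors was 0.01.

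Among all genes, the 14 highest passing genes by the naming rule were led by a growth factor, a TGF-beta family ligand and Pbx3. Igf1 (ENSMUSG00000020053, GRCm38 chromosome 10, 87858265 to 87937042, plus strand), insulin-like growth factor 1, had 481, 189.6, 409 and 406 CPM against 8.13, 14.4, 8.48 and 8.58 (log2 fold change 5.23 ± 0.31, adjusted p = 9.87e-08). Inhba (ENSMUSG00000041324, GRCm38 chromosome 13, 16011851 to 16031621, plus strand), the subunit of activin A, had 45, 126, 36 and 55.2 against 1.84, 2.66, 3.06 and 1.94 (log2 fold change 4.78 ± 0.39, adjusted p = 2.47e-06). Klhl4, a kelch-repeat gene, had 197, 145, 202 and 175 against 11.5, 16.2, 10.8 and 14.4 (log2 fold change 3.76 ± 0.31, adjusted p = 2.56e-06). The 4 libraries were high for all 3 genes, with library 2 lowest for Igf1 and highest for Inhba. The Inhba difference without libraries 2 and 4 was 4.09 ± 0.28, adjusted p = 5.72e-06, a change in size of over 1.5 times. Ndnf, a secreted neurotrophic factor, had 51.9, 29.6, 63 and 16.5 CPM against 2.19, 3.55, 2.44 and 2.58 (log2 fold change 3.9 ± 0.38, adjusted p = 2.02e-05). It was 8.8, 9.74, 5.38 and 7.46 CPM in Flt3-ITD, above the wild type in every library.

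Of secreted and surface proteins, Serpine2, a protease inhibitor, had 12.6, 24.3, 8.71 and 5.52 CPM against 1.73, 2.74, 2.73 and 1.3 (log2 fold change 2.58 ± 0.41, adjusted p = 0.00224). Chil5, a chitinase-like protein, had 105, 148, 60.6 and 123 against 30.5, 35, 28.7 and 24.4 (log2 fold change 1.88 ± 0.23, adjusted p = 0.000269). Havcr2 (TIM-3), an immune checkpoint receptor also found on leukemic stem cells, had 15.1, 29.7, 18.9 and 20.2 against 8.1, 7.63, 3.27 and 5 (log2 fold change 1.8 ± 0.34, adjusted p = 0.00882). The groups do not overlap for any of the 14 genes, which the naming rule required. F2rl2, a thrombin receptor of platelets, had 12.5, 11.6, 19.2 and 28.4 CPM against 5.13, 4.74, 6.29 and 4.37 (log2 fold change 1.81 ± 0.29, adjusted p = 0.00265). Adora2b, an adenosine receptor, had 15.7, 3.89, 9.28 and 5.23 against 3.54, 2.26, 1.36 and 2.15 (log2 fold change 1.87 ± 0.41, adjusted p = 0.0259), while Flt3-ITD had 5.92, 5.2, 8.63 and 9.65. Of cytoplasmic and nuclear proteins, Schip1 had 84, 84.3, 64.4 and 70.6 against 15.1, 17, 10.1 and 11.2 (log2 fold change 2.5 ± 0.19, adjusted p = 1.63e-06). Hmgn3, a nucleosome-binding protein, had 67.1, 39.3, 48.9 and 59.2 against 12, 14.7, 17 and 14 (log2 fold change 1.89 ± 0.19, adjusted p = 3.25e-05), and Tent5a, a poly(A) polymerase, 36.8, 42.8, 35.6 and 85.2 against 12.1, 12.4, 18.8 and 11.6 (log2 fold change 1.87 ± 0.34, adjusted p = 0.00649).

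The remaining gene of the 14 is H19, given below with the fetal genes. All 14 kept their sign without libraries 2 and 4 and 12 were still called. The exceptions were Tent5a (1.4 ± 0.33, adjusted p = 0.0539) and Havcr2 (1.5 ± 0.38, adjusted p = 0.0785). Leaving out 1 library at a time, 13 of 14 passed in every fit, and Adora2b lost its call without double-mutant library 1 or 3 or wild-type library 2, 3 or 4 (adjusted p up to 0.0948).

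**Figure D3:**
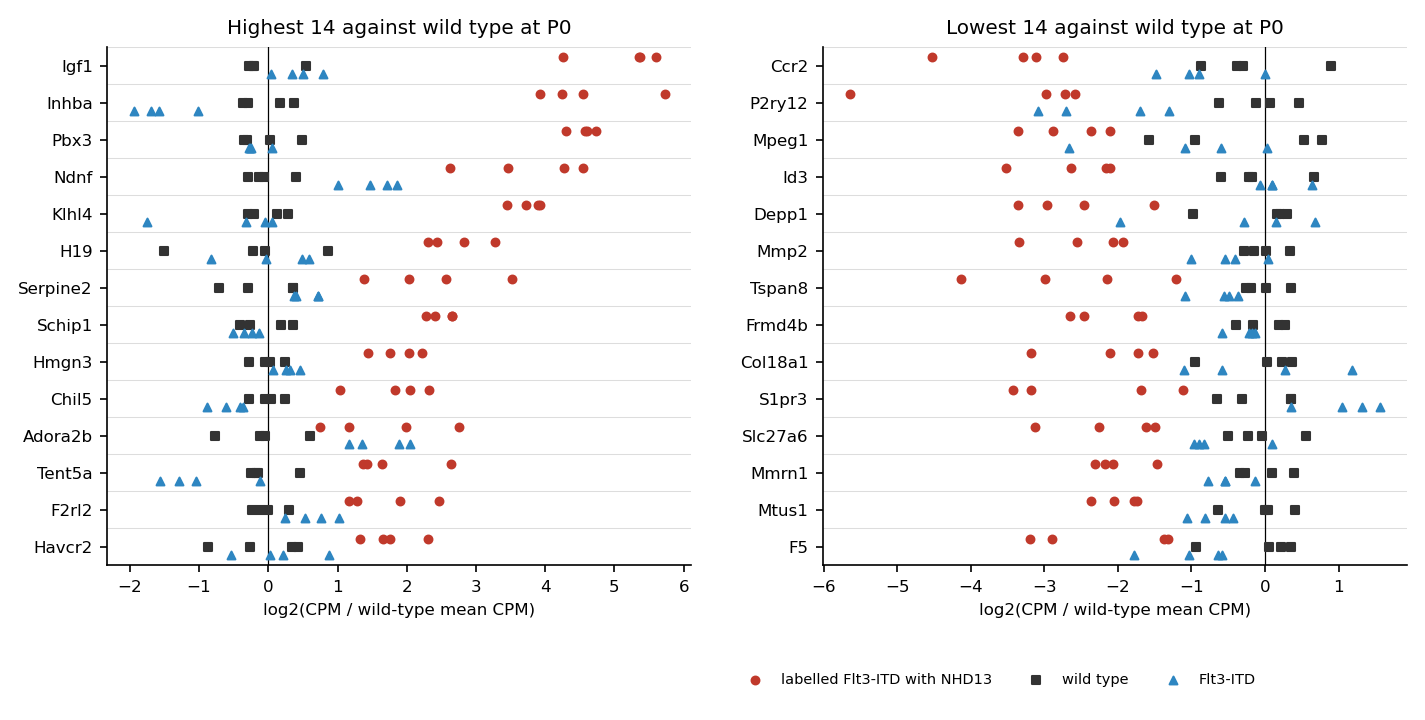
The 14 highest and 14 lowest passing genes of Flt3-ITD with NHD13 against wild type at P0, as log2 of each library's CPM over the mean CPM of the wild type (1 point per library). The libraries labelled Flt3-ITD with NHD13 do not overlap the wild type for any of these genes, which the naming rule required.

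The 14 lowest genes held a chemokine receptor, an inhibitor of differentiation factors, and matrix and endothelial genes. Ccr2, the chemokine receptor of monocytes and their precursors, had 3.88, 2.68, 3.02 and 1.13 CPM in the labelled double mutants and 14.3, 20.02, 48.9 and 21.3 in the wild type (log2 fold change -3.29 ± 0.45, adjusted p = 0.000716). P2ry12, a nucleotide receptor of platelets and macrophages, had 2.39, 2.01, 0.315 and 2.63 against 14.5, 10.2, 21.8 and 16.6 (log2 fold change -3.12 ± 0.53, adjusted p = 0.00402). Id3, a helix-loop-helix inhibitor, had 15.2, 10.5, 5.72 and 14.7 against 58.2, 43.6, 104 and 56.8 (log2 fold change -2.51 ± 0.32, adjusted p = 0.000295). Id3 was low in every labelled double-mutant library and not in Flt3-ITD, where it had 70.1, 62.5, 102 and 69.98 CPM. Mpeg1 (perforin-2), a macrophage gene, had 2.5, 1.46, 2.08 and 1.05 against 3.61, 5.55, 15.5 and 18.3 (log2 fold change -2.6 ± 0.57, adjusted p = 0.0258), its wild-type level being highest in libraries 3 and 4. Mmrn1, multimerin of platelets and endothelium, had 32, 37.8, 35 and 56.9 against 169, 207, 125 and 131 (log2 fold change -1.97 ± 0.21, adjusted p = 8.25e-05). Frmd4b, a FERM-domain scaffold gene, had 6.32, 3.65, 3.21 and 6.11 against 24.2, 23, 15.4 and 18 (log2 fold change -2.07 ± 0.26, adjusted p = 0.000272). Mmp2, a matrix protease, had 0.85, 2.07, 2.26 and 1.46 against 10.9, 7.81, 7.07 and 8.73 (log2 fold change -2.37 ± 0.33, adjusted p = 0.000716).

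Of the other 7, Tspan8, a tetraspanin, had 0.584, 2.31, 1.29 and 4.43 CPM against 8.59, 13.2, 8.98 and 10.4 (log2 fold change -2.25 ± 0.43, adjusted p = 0.0101). Slc27a6, a fatty acid transporter, had 3.5, 2.07, 1.13 and 3.22 against 6.93, 14.5, 9.55 and 8.43 (log2 fold change -2.0 ± 0.37, adjusted p = 0.00871), and Mtus1 had 1.54, 2.31, 1.92 and 2.38 against 8.17, 10.5, 5.09 and 7.94 (log2 fold change -1.96 ± 0.28, adjusted p = 0.00109). Depp1 had 9.93, 3.65, 2.77 and 5.14 against 31.6, 14.3, 34.7 and 32.7 (log2 fold change -2.4 ± 0.5, adjusted p = 0.0179). S1pr3, a sphingosine-1-phosphate receptor, had 2.23, 0.791, 3.33 and 0.669 against 9.23, 4.56, 5.79 and 9.22 (log2 fold change -2.01 ± 0.45, adjusted p = 0.0273). Col18a1, a basement membrane collagen, had 4.19, 6.33, 5.47 and 2.01 against 21.3, 23.4, 9.35 and 18.5 (log2 fold change -2.02 ± 0.46, adjusted p = 0.0327), and F5, coagulation factor V, 1.49, 5.29, 5.5 and 1.84 against 15.9, 17.4, 7.16 and 14.2 (log2 fold change -1.95 ± 0.43, adjusted p = 0.0243). All 14 kept their sign without libraries 2 and 4, and 8 were still called there. The others had adjusted p = 0.254 (Mpeg1), 0.25 (Depp1), 0.177 (Col18a1), 0.136 (S1pr3, log2 fold change -1.36), 0.0527 (Slc27a6) and 0.0963 (F5), and Tspan8 moved to -3.4 ± 0.39, adjusted p = 0.000383. Tspan8 was -2.9 without double-mutant library 4 alone (adjusted p = 0.00087). Calls were lost for Mpeg1 without double-mutant library 1, 2, 3 or 4 or wild-type library 3 or 4, for Depp1 without double-mutant library 2, 3 or 4 or wild-type library 4, for Col18a1 without double-mutant library 1, 3 or 4 or wild-type library 1, 2 or 4, for S1pr3 without double-mutant library 1, 2 or 4 or wild-type library 1 or 4 and for F5 without double-mutant library 1 or 4 or wild-type library 1, 2 or 4, with adjusted p up to 0.0983.

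Stem cell genes moved in both directions. Of 34 genes in the list, 33 were tested, 5 rose and 2 fell (7 of 33, beside 2.08% of all tested genes), with a median log2 fold change of 0.27. Mecom (Evi1), a transcription factor of stem cells and leukemia, had 75.9, 85.4, 95.5 and 99.5 CPM against 42.1, 52.7, 39.96 and 31.1 (log2 fold change 1.1 ± 0.19, adjusted p = 0.00553). Nupr1, a stress-linked regulator, had 10.9, 16.1, 12 and 11.2 against 2.58, 2.13, 1.2 and 1.49 (log2 fold change 2.76 ± 0.33, adjusted p = 0.000223). Slamf1 (CD150), a surface marker of stem cells, had 18.3, 25.7, 23.9 and 30.6 against 5.27, 13.1, 2.94 and 7.4 (log2 fold change 1.77 ± 0.37, adjusted p = 0.0154). Mllt3, a stem cell regulator chosen after its values were seen, had 84.2, 78.5, 55.9 and 71.9 against 44.1, 51.1, 44.5 and 40.9 (log2 fold change 0.69 ± 0.15, adjusted p = 0.0267). The groups did not overlap for these 4 genes, and the fifth that rose, Itga2b, is described with the megakaryocyte genes. Going the other way, Cd34, the surface glycoprotein of progenitors, had 1258, 1124, 1190.5 and 1084 CPM against 2081, 2017, 2081 and 1824 (log2 fold change -0.78 ± 0.11, adjusted p = 0.000746). Esam, an adhesion molecule of stem cells and endothelium, had 23.3, 54, 31.6 and 19.8 against 79.1, 119.6, 59.1 and 64 (log2 fold change -1.33 ± 0.3, adjusted p = 0.0267), and Tek (TIE2), the angiopoietin receptor, 12.4, 23.7, 16.1 and 20.8 against 34.1, 45.9, 28.2 and 27.2 without passing (log2 fold change -0.89 ± 0.23, adjusted p = 0.0649). Progenitor identity genes, a list of 10 that includes Cd34, held 1 that fell (1 of 10 tested, beside 0.975% of all tested genes). Their summed level was 3423 to 4011 CPM in the labelled double mutants against 4959 to 5871 in the wild type. Cd34 and Flt3, both in the list, carry much of this sum, with means of 1164 and 528 CPM against 2001 and 940. The median log2 fold change of the list was -0.26.

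Leaving out libraries 2 and 4, the stem cell list held 2 genes higher (Mecom and Nupr1) and 3 lower (Cd34, Esam and Tek, with Tek at -1.24 ± 0.26, adjusted p = 0.0295), while Slamf1 (adjusted p = 0.118) and Mllt3 (adjusted p = 0.11) missed the threshold. Mecom, Nupr1 and Cd34 passed in 8 of 8 fits that left out 1 library. The call was lost for Slamf1 without wild-type library 1 or 4, for Mllt3 without double-mutant library 1 or wild-type library 1, 3 or 4 and for Esam without double-mutant library 1, 3 or 4 or wild-type library 1 or 2 (adjusted p up to 0.106), and Tek passed without double-mutant library 2 (adjusted p = 0.0313).

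Some surface genes of the megakaryocyte lineage rose, and platelet genes went both ways. Of 18 genes in the list, 14 were tested and 3 rose (3 of 14, beside 1.11% of all tested genes), with a median of 0.15. Among genes outside the list that are described above, F2rl2 of platelets rose, while P2ry12 and Mmrn1, of platelets and other cells, fell. Itga2b (CD41) had 31.9, 43, 42.3 and 49.6 CPM against 24.4, 26.4, 19.7 and 26.1 (log2 fold change 0.79 ± 0.19, adjusted p = 0.0474), and its partner integrin Itgb3 (CD61) had 6.16, 15.7, 16.4 and 14.7 against 5.06, 7.88, 4.05 and 5.64 (log2 fold change 1.22 ± 0.3, adjusted p = 0.0454), where library 1 fell within the wild-type range. Treml1, a receptor of platelet granules, had 8.66, 11.6, 9.37 and 13.7 against 3.71, 5.68, 2.36 and 4.03 (log2 fold change 1.45 ± 0.3, adjusted p = 0.015). Pf4, a chemokine of platelet granules, had 7.96, 11.6, 10.8 and 89.5 against 9.37, 10.5, 3.68 and 7.76 and rested on library 4 (log2 fold change 1.93 ± 0.69, adjusted p = 0.263). None of the list was called without libraries 2 and 4, with adjusted p = 0.252 for Itga2b, 0.247 for Itgb3 and 0.126 for Treml1. Leaving out 1 library, the call was lost for Itga2b without double-mutant library 2, 3 or 4 or wild-type library 1, 2, 3 or 4, for Itgb3 without double-mutant library 2, 3 or 4 or wild-type library 1, 3 or 4 and for Treml1 without wild-type library 1 or 4 (adjusted p up to 0.148).

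Fetal program genes included the RNA-binding protein Lin28b and the imprinted transcript H19. Lin28b (ENSMUSG00000063804, GRCm38 chromosome 10, 45376620 to 45486395, minus strand) had 54.6, 40.1, 68.6 and 63.9 CPM in the labelled double mutants, 19.4, 17.8, 12 and 22.3 in the wild type and 19.2, 17.8, 14.4 and 20.3 in Flt3-ITD (log2 fold change 1.67 ± 0.22, adjusted p = 0.000403). H19 had 65.7, 89.1, 50.1 and 45.7 against 8.91, 16.9, 3.27 and 7.91 (log2 fold change 2.75 ± 0.42, adjusted p = 0.00166). Both were higher in all 4 labelled double-mutant libraries, and passed without libraries 2 and 4 and in 8 of 8 fits that left out 1 library. Of 15 genes in the list, 12 were tested, these 2 rose and none fell (2 of 12, beside 1.11% of all tested genes that rose, with a median of 0.28). Igf2, the growth factor next to H19, had 7.12, 17.5, 7.83 and 4.81 CPM against 1.1, 7.12, 0.703 and 1.36 (log2 fold change 1.83 ± 0.61, adjusted p = 0.187). Wild-type library 2, which also held the hepatocyte transcripts, was the highest of its group, and without it the Igf2 difference was 3.12 (adjusted p = 0.00297). Arid3a had 24.8, 41.9, 37.7 and 25.3 against 18.8, 13.4, 17.8 and 18.9 (log2 fold change 0.91 ± 0.23, adjusted p = 0.0546), and passed without double-mutant library 1 or 4 (adjusted p = 0.0488 and 0.0424).

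The Lin28b promoter, shown because Lin28b rose and its start region holds the HOX and PBX motif, lies at chr10:45470152-45470451, minus strand in GRCm38.p6 and is given 5′ to 3′ on the gene's strand. Capitals mark 2 overlapping matches to TGATTNAT on either strand, which begin 232 and 230 bases before the start.
Lin28b: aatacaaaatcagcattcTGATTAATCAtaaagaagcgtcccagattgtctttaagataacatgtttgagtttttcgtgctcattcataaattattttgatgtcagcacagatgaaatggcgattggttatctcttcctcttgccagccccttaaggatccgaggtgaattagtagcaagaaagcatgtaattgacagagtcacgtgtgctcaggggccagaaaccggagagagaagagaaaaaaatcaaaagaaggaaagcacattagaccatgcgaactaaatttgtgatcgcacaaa
Matches to the motif lay in 3.74% of the 27025 symbols of the promoter table, 1.74% of the 10571 tested genes in it, 4.03% of the 124 genes that rose and 5.88% of the 102 that fell. Matches to AGATAA, a motif of the GATA1 family, lay in 8.26%, 13.7% and 9.8% of the tested, risen and fallen genes, and those to CCGGAAGT, an ETS motif, in 8.97%, 0.806% and 1.96%. Matches to TTCNNNGAA, a STAT motif, lay in 8.33%, 6.45% and 8.82%, and those to the interferon-stimulated response element in 3.96%, 4.03% and 4.9%. By each gene's promoter with the most CG dinucleotides, the median was 21 for tested genes, 15.5 for risen genes and 11.5 for fallen genes. These shares are descriptions and motif matches are not shown to be bound.

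A receptor, an enzyme and a transcription factor of the granulocyte and monocyte lineage fell. Of 32 in the list, 29 were tested, 3 fell and none rose (3 of 29, beside 0.975% of all tested genes that fell), with a median log2 fold change of -0.71, and in 7 every labelled double-mutant library lay below every wild-type library (7 of 29, beside 3.13% of all tested genes). Csf1r, the receptor of macrophage colony-stimulating factor, had 14.8, 39.2, 36 and 15.5 CPM against 93.9, 77.9, 87.6 and 96.6 (log2 fold change -1.75 ± 0.27, adjusted p = 0.00208). Mpo, myeloperoxidase of granule precursors, had 329.7, 727, 665 and 364 against 1378, 1311, 908 and 1458 (log2 fold change -1.28 ± 0.25, adjusted p = 0.0115). Irf8, the transcription factor of monocyte and dendritic fates, had 23.9, 38.3, 30.4 and 26.8 against 46.7, 62.1, 83.7 and 73.3 (log2 fold change -1.16 ± 0.24, adjusted p = 0.0154). All 4 labelled double-mutant libraries were low for the 3 genes, with 1 and 4 lowest for Csf1r and Mpo. At an unadjusted p under 0.05 the list held 11 lower and 2 higher. Cd68, a macrophage gene, went the other way, with 49.5, 77.6, 33.4 and 33.5 CPM against 27.9, 31.4, 29.7 and 30.8. It was the only 1 of the 29 above the wild type in every library (beside 3.37% of all tested genes), without passing (log2 fold change 0.69 ± 0.24, adjusted p = 0.2). In the fit without libraries 2 and 4, 4 genes of the list fell, these 3 among them. The Irf8 call was lost without double-mutant library 1 or wild-type library 3 or 4 (adjusted p up to 0.0603). In bulk RNA, fewer cells of a type and less RNA per cell cannot be told apart, here and for the groups below.

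Lymphoid genes also held some that fell. Of 26 in the list, 24 were tested, 3 fell and none rose (3 of 24, beside 0.975% of all tested genes that fell, with a median of -0.44). Ccr9, a homing receptor of lymphoid-primed progenitors, had 26.3, 31.8, 42.3 and 30.4 CPM against 91.6, 93.9, 113 and 71.9 (log2 fold change -1.5 ± 0.19, adjusted p = 0.000275). Notch1, the receptor that starts T cell development, had 15.9, 33.4, 45.6 and 42.5 against 65.3, 69.7, 56.8 and 97.8 (log2 fold change -1.07 ± 0.26, adjusted p = 0.0457). Tcf7, a T cell factor, had 0.319, 0, 0.22 and 0 against 0.884, 0.71, 9.97 and 3.15 (log2 fold change -4.67 ± 1.13, adjusted p = 0.0457), with wild-type library 3 the highest. Il7r, the interleukin 7 receptor, had 3.88, 7.54, 7.58 and 8.2 against 14.2, 11.9, 36.2 and 15.6 and missed the threshold (log2 fold change -1.51 ± 0.4, adjusted p = 0.0663), while DESeq2 (adjusted p = 0.00303) and edgeR without the low-count filter (adjusted p = 0.0494) called it. In Flt3-ITD, Ccr9 had 40.8, 48.5, 49 and 60.6 CPM and Notch1 42, 50.5, 39.6 and 46.8, below every wild-type library. Against Flt3-ITD, Ccr9 (-0.6 ± 0.18, adjusted p = 0.104), Notch1 (-0.38 ± 0.26, 0.53), Tcf7 (-2.83 ± 1.12, 0.226) and Il7r (-0.29 ± 0.39, 0.772) did not pass. In that contrast the list held 1 gene higher and 2 lower. Against the wild type, Ccr9 passed without libraries 2 and 4 and in 8 of 8 fits that left out 1 library. Notch1 and Tcf7 did not pass without libraries 2 and 4 (adjusted p = 0.111 and 0.294), nor without double-mutant library 1 or 2 or wild-type library 1, 2, 3 or 4 for Notch1 and double-mutant library 1, 2, 3 or 4 or wild-type library 3 or 4 for Tcf7 (adjusted p up to 0.164).

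Markers of T and NK cells moved with these groups. Of 13, 9 were tested and 3 fell (3 of 9, beside 0.975% of all tested genes). Nkg7, a granule protein of cytotoxic cells, had 36.5, 39.7, 28.7 and 32 CPM against 109, 95.4, 117 and 110.0 (log2 fold change -1.66 ± 0.2, adjusted p = 0.000177). Trbc2, a T cell receptor constant region, had 14.7, 30.3, 12.8 and 21.7 against 60.2, 51.6, 64.1 and 60.2 (log2 fold change -1.57 ± 0.25, adjusted p = 0.00224), and Klrd1 (CD94) 0, 0.182, 0.0629 and 0.418 against 7.36, 3.52, 3.85 and 5.03 (log2 fold change -4.86 ± 0.73, adjusted p = 0.00161). Their summed level was 86.9 to 125 CPM in the labelled double mutants and 206 to 233 in the wild type, without overlap, and Cd3e and Ncr1, 2 of the 13 markers, had no count in the labelled double mutants. The 3 calls held without libraries 2 and 4, where Klrd1 was -6.86 ± 1.01, adjusted p = 0.00314, and Klrd1 was -5.95 without library 4 alone. Trac, the alpha chain constant region of the T cell receptor, went the other way without passing, with 1.06, 2.37, 0.377 and 0.586 CPM against 0.212, 0.329, 0.0414 and 0.0303, above in every library (log2 fold change 2.74 ± 0.84, adjusted p = 0.139). Dendritic cell markers, 10 tested, held 2 that fell (2 of 10, beside 0.975% of all tested genes). Flt3 is one of the 10 and made up most of their summed level of 316 to 808 against 776 to 1233 CPM. The other 9 summed to 22.6 to 32.1 against 30.6 to 54.6 CPM, which overlap, with no marker at 0 in either group. Cd209a had 2 counts against 298, lower by a ratio of 109 with a 95% counting interval of 29.8 to 900.3 (adjusted p = 0.00977). Siglech had 0, 0.487, 0.0315 and 0 CPM against 1.66, 1.27, 0.951 and 1.91 (log2 fold change -3.65 ± 0.88, adjusted p = 0.0429). The adjusted p without libraries 2 and 4 was 0.0668 for Cd209a and 0.0035 for Siglech (log2 fold change -5.96). The Siglech call was lost without double-mutant library 1, 3 or 4 or wild-type library 1, 2, 3 or 4 (adjusted p up to 0.131), and without double-mutant library 2 its difference was -6.4. Cd209a passed without each library. The part of such cells in the lower lymphoid and monocyte genes was not tested.

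Erythroid genes, 19 of 24 tested, had no call by edgeR, with 1 higher and 6 lower at an unadjusted p under 0.05 and 1 higher and 4 lower by DESeq2. Hbb-bt, an adult beta globin, had 545, 601, 309 and 297 CPM against 241, 273, 181 and 237, above in every library (log2 fold change 0.91 ± 0.24, adjusted p = 0.0715), and passed without double-mutant library 3 or 4 (adjusted p = 0.0476 and 0.0311) and by DESeq2 (adjusted p = 0.0142). Other globins and Alas2, the first enzyme of erythroid heme synthesis, were lower without passing by edgeR, and wild-type library 2 was the highest for each. Hbb-bs, another adult beta globin, had 1.43, 1.22, 2.08 and 0.836 CPM against 2.44, 67.8, 1.41 and 7.7 (log2 fold change -3.82 ± 1.16, adjusted p = 0.167), and -1.46 without wild-type library 2. The log2 fold change was -4.07 ± 1.12 for Hba-a2, -3.8 ± 1.26 for Hba-a1 and -1.98 ± 0.84 for Alas2, and -1.72, -1.49 and -0.10 without that library. Hba-a1 and Hba-a2 are near-identical copies, so the split of reads between them is uncertain. How reads were split between the beta globins Hbb-bt and Hbb-bs was not tested. DESeq2 called Hbb-bs, Hba-a2 and Hba-a1 lower (adjusted p = 0.00985, 0.0116 and 0.0456). Hepatocyte markers, 9 tested, had no call by edgeR, 8 lower at an unadjusted p under 0.05 and 3 lower by DESeq2. Their summed level was 923 CPM in the same wild-type library 2, 35.6 to 100 in the other wild-type libraries and 25.9 to 59.1 in the labelled double mutants. Markers of macrophages (11 tested, 3 lower at an unadjusted p under 0.05, none by DESeq2), of mast cells, basophils and eosinophils (14 tested, 1 higher, 1 by DESeq2), of B cells (3 tested, 0 and 0) and of endothelium and stroma (4 tested, 2 lower, 2 by DESeq2) had no call by edgeR either.

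Among proliferation genes, Mki67, the Ki-67 proliferation antigen, had 5.15, 8.7, 13.5 and 10.7 CPM against 33.6, 38.3, 14.9 and 39.8 (log2 fold change -1.73 ± 0.35, adjusted p = 0.0131). It was the only 1 of 30 tested cell cycle genes to pass (beside 0.975% of all tested genes that fell). In that list 2 were lower at an unadjusted p under 0.05, and the median was -0.2. Wild-type library 3 was close to the labelled double mutants. The call was lost without wild-type library 4 (adjusted p = 0.053) and without double-mutant libraries 2 and 4 together (adjusted p = 0.108). Cell cycle inhibitors (8 tested) and MYC and ribosome biogenesis genes (21 tested) had no call by edgeR or DESeq2, with 1 lower and 0 at an unadjusted p under 0.05 and medians of 0.07 and 0.02.

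Lists of interferon and cytokine signalling genes had no call by edgeR. Their counts at an unadjusted p under 0.05 stand beside 1615 of all 14359 tested genes, in either direction. Type I interferon-stimulated genes (41 of 42 tested) had 0 calls by edgeR, 15 higher and 0 lower at an unadjusted p under 0.05, 4 higher by DESeq2, and a median of 0.51, with a summed level of 3843 to 6577 CPM against 2683 to 5232. Isg15, a ubiquitin-like interferon product, had 141, 194, 164 and 73.4 CPM against 77.8, 108, 42.6 and 58.1 (log2 fold change 1.0 ± 0.3, adjusted p = 0.136). Cmpk2 had 41.6, 38.1, 54.6 and 42.4 against 27.7, 31.7, 24.3 and 15.6, above in every library without passing (log2 fold change 0.83 ± 0.28, adjusted p = 0.189). Library 4 was lowest for Isg15, within the wild-type range, and without it Isg15 passed (1.21, adjusted p = 0.0327). Genes of MHC class I and of the interferon-gamma response (24 of 25 tested) had 0 calls by edgeR, 4 higher and 1 lower at an unadjusted p under 0.05, and 1 higher by DESeq2. Irgm1, an interferon-induced GTPase, had 456, 551, 528 and 417 CPM against 375, 401, 305 and 278 (log2 fold change 0.52 ± 0.15, adjusted p = 0.107). Leaving out libraries 2 and 4, 2 interferon-stimulated genes and 1 of the MHC list passed, all higher. Of these, Oas1g is among the genes that rise with Flt3-ITD at P14, on which those libraries stood apart, so its call is a description.

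STAT5 targets (15 tested) had 0 calls by edgeR and by DESeq2, 2 higher and 3 lower at an unadjusted p under 0.05, and a median of 0.01. Socs2, with its levels given above, had a log2 fold change of 1.5 ± 0.64 (adjusted p = 0.388), and without libraries 2 and 4 it was 2.34 ± 0.19, adjusted p = 1.95e-05. Cish, another STAT5-induced inhibitor, had 30.7, 23.7, 52.9 and 8.95 CPM against 16.1, 15.7, 16.2 and 18.6 (log2 fold change 0.81 ± 0.36, adjusted p = 0.391), where library 4 was lowest and library 3 highest. In the fit without libraries 2 and 4 it was 1.33 ± 0.23, adjusted p = 0.00881, and without library 4 alone 1.11 (adjusted p = 0.0311). These libraries stood apart on Socs2 and on genes that rise with Flt3-ITD at P14, Cish among them. The Socs2 and Cish values without these libraries are therefore descriptions. Myc had 396, 321, 539 and 368 against 749.8, 424, 618 and 723 (log2 fold change -0.63 ± 0.19, adjusted p = 0.139), and passed without wild-type library 2 (adjusted p = 0.0444). MAPK feedback genes (10 of 12 tested) had 0 calls by edgeR, 2 lower at an unadjusted p under 0.05, and 1 lower by DESeq2. Spry2, an inhibitor of receptor kinase signalling, had 24.9, 14.4, 41.4 and 42.8 CPM against 54.4, 74.2, 69.7 and 45.9 (log2 fold change -0.98 ± 0.31, adjusted p = 0.154), and Etv5, an ETS factor induced by MAPK, 14.8, 19.8, 23.2 and 22.3 against 38.7, 41.3, 31.4 and 29.4 (log2 fold change -0.81 ± 0.27, adjusted p = 0.175). Both lay below the wild type in every library without passing. Immediate early genes (13 of 15 tested) had 0 calls by edgeR, 2 higher at an unadjusted p under 0.05, and 1 higher by DESeq2. Klf6 had 154, 311, 154 and 171 against 127, 132, 124 and 109, with library 2 far above the rest (log2 fold change 0.69 ± 0.19, adjusted p = 0.102).

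**Figure D4:**
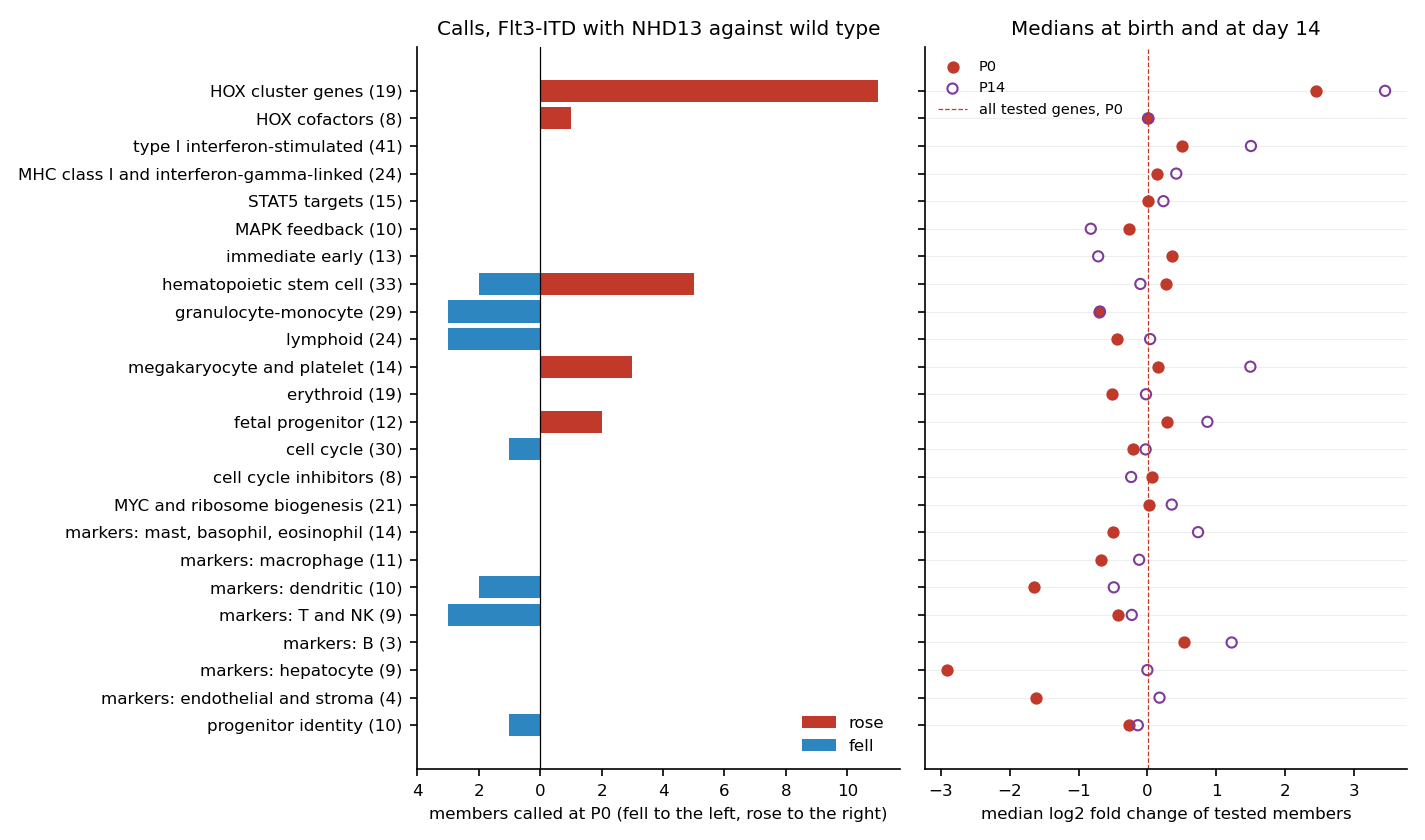
Gene lists at P0: members that rose or fell in Flt3-ITD with NHD13 against wild type (left, tested members in parentheses) and the median log2 fold change of tested members at P0 and at P14 (right, with the median over all genes tested at P0 as a dashed line). The HOX list has 11 of 19 members called, and the interferon-stimulated list has none called at P0 with a median of 0.51, against 1.51 at P14.

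Against Flt3-ITD of the same age, which shares these 4 labelled double-mutant libraries, 413 of 14359 genes passed (2.88%), 250 higher (1.74%) and 163 lower (1.14%). Leaving out libraries 2 and 4 gave 247 calls, 150 higher and 97 lower. Flt3-ITD itself against the wild type had 2 calls in this fit, 1 in each direction. The 5 highest genes by the naming rule, which requires a mean log2 CPM of at least 2, were Inhba, Igf1, Pbx3, Klhl4 and Cyp4b1. Outside that rule HOX genes, Hoxc5 among them, had larger fitted differences. Inhba, at 1.17, 0.731, 0.794 and 0.619 CPM in Flt3-ITD, differed by 6.28 ± 0.42 (adjusted p = 3.01e-07) and Igf1, at 10.2, 14.1, 12.6 and 17.2, by 4.78 ± 0.3 (adjusted p = 2.58e-07). Pbx3 differed by 4.74 ± 0.23 (adjusted p = 1.6e-08) and Klhl4, at 10.6, 13.7, 3.94 and 12.7 CPM in Flt3-ITD, by 4.13 ± 0.31 (adjusted p = 1.05e-06). In Flt3-ITD the levels of Igf1, Pbx3 and Klhl4 overlapped those of the wild type, and Inhba lay below it in every library. The Inhba difference without libraries 2 and 4 was 5.59. Cyp4b1, a cytochrome P450, had 7.27, 45, 13.9 and 13.8 CPM in the labelled double mutants and 2.3, 4.28, 1.16 and 3.28 in Flt3-ITD (log2 fold change 2.85 ± 0.6, adjusted p = 0.0178), and library 2 carried the highest value. Its call was lost without libraries 2 and 4 (adjusted p = 0.122) and without Flt3-ITD library 1, 3 or 4 (adjusted p = 0.0666, 0.0612 and 0.0506), and the difference was 2.08 without library 2.

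The 5 lowest against Flt3-ITD were H2-Eb1, Sparc, S1pr3, Id3 and Naaa. Sparc, a matrix glycoprotein, had 3.4, 1.09, 2.55 and 1.25 CPM against 13.1, 22.7, 22.7 and 29.8 in Flt3-ITD (log2 fold change -3.4 ± 0.44, adjusted p = 0.000356). S1pr3 was at 14.9, 9.2, 21.4 and 18 in Flt3-ITD (log2 fold change -3.14 ± 0.46, adjusted p = 0.00109, and -2.49 without libraries 2 and 4), and Id3 differed by -2.73 ± 0.32 (adjusted p = 0.000133). Naaa, a lysosomal amidase, had 1.06, 2.19, 1.79 and 3.01 against 4.2, 10.6, 23.8 and 11.7 (log2 fold change -2.63 ± 0.5, adjusted p = 0.00902). H2-Eb1, an MHC class II chain of antigen-presenting cells, had 0.85, 4.56, 1.04 and 4.31 against 8.43, 30.1, 79.3 and 36.4 (log2 fold change -3.86 ± 0.86, adjusted p = 0.0353). The H2-Eb1 call was lost without libraries 2 and 4 (-5.33, adjusted p = 0.0936), without any 1 of the 4 labelled double-mutant libraries, and without Flt3-ITD library 2, 3 or 4 (adjusted p from 0.0535 to 0.0829). Of the lists, HOX again had 11 genes higher, with Hoxa10 (0.74 ± 0.17, adjusted p = 0.0264) among them and Hoxa7 (0.62 ± 0.18, adjusted p = 0.0912) not. Beside 1.74% of all tested genes higher and 1.14% lower, the stem cell list had 9 of 33 higher and 2 lower, the granulocyte and monocyte list 3 of 29 lower, and the fetal list 3 of 12 higher, Lin28b, H19 and Igf2. The fits that left out 1 library gave 4 (without Flt3-ITD library 1) to 11 stem cell genes higher, 2 to 3 granulocyte and monocyte genes lower and 2 to 4 fetal genes higher.

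The effect at birth was set beside that at P14, each against the wild type of its own age, in 1 fit of 36 libraries and 14984 genes. Of these genes 586 had a different effect at the 2 ages (3.91%), 381 of them with a higher value at P0 (2.54%) and 205 with a lower (1.37%). Without P0 libraries 2 and 4 there were 377, 219 of them higher. The 2 ages are in separate tables, so age and table cannot be told apart. No HOX gene of 20 tested differed between ages, none at an unadjusted p under 0.05 in either direction, and no DESeq2 fit was run for this comparison. Hoxc5, for example, had a log2 fold change of 8.65 ± 0.45 at P14 in this fit and Hoxa9 0.73 ± 0.12. For other HOX genes near 0 in the wild type the age difference was uncertain. It was -2.17 ± 1.11 for Hoxb7 (adjusted p = 0.321), -3.49 ± 2.22 for Hoxc8 (adjusted p = 0.458) and 0.17 for Hoxd13, which had 7.14 ± 0.66 at P14. No SE is given for the Hoxd13 age difference, since an SE worked back from the test is not usable so near 0. Pbx3 had 4.81 ± 0.22 at P14 (age difference -0.27 ± 0.28, adjusted p = 0.682), Igf1 5.95 ± 0.27 (age difference -0.73 ± 0.31, adjusted p = 0.209) and Klhl4 4.53 ± 0.36 (age difference -0.78 ± 0.44, adjusted p = 0.389). The SEs give an approximate measure of how far the other effects could differ between ages, and only a loose one for Hoxb7 and Hoxc8. The missing call does not show that the effects are equal. Of 8 HOX cofactors tested, 1 had a higher effect at birth (1 of 8, beside 2.54% of all tested genes) and none a lower. Each fit that left out 1 library also gave 1 higher. Without P0 libraries 2 and 4 the cofactor that passed was Meis1.

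Some interferon-stimulated genes had a lower effect at birth. Of 41 tested, 14 differed, all lower at P0 (14 of 41, beside 1.37% of all tested genes), and at P14 38 of the 41 rose, with a median of 1.51 there. Isg15 had 2.56 ± 0.35 at P14 (age difference -1.58 ± 0.47, adjusted p = 0.0494), and Cmpk2 2.23 ± 0.3 (age difference -1.41 ± 0.41, adjusted p = 0.0435). Without P0 libraries 2 and 4 the 14 became 2. Leaving out 1 library gave 6 to 23, with 6 without wild-type library 2 of P0. Socs2 differed by -2.66 ± 0.64 (adjusted p = 0.0144), and by -1.82 ± 0.34, adjusted p = 0.00157 without libraries 2 and 4. Lin28b, which rose at both ages, had 4.18 ± 0.21 at P14 and a smaller effect at P0 (age difference -2.52 ± 0.26, adjusted p = 2.14e-07).

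Stem cell genes had a higher effect at birth for 10 of 33 (beside 2.54% of all tested genes) and a lower for none. Esam had -4.05 ± 0.32 at P14 (age difference 2.71 ± 0.41, adjusted p = 8.22e-05), Tek -2.42 ± 0.27 (age difference 1.51 ± 0.36, adjusted p = 0.011) and Mllt3 -0.15 ± 0.12 (age difference 0.83 ± 0.18, adjusted p = 0.00376). Leaving out 1 library gave 9 to 11 genes higher, and without P0 libraries 2 and 4 it was 8, with 1 lower. In the granulocyte and monocyte list, of 31 tested, 4 had a lower effect at birth and 3 a higher. Over all tested genes the shares were 1.37% lower and 2.54% higher. Irf8 was 0.5 ± 0.21 at P14 (age difference -1.66 ± 0.29, adjusted p = 0.000496). Mpo was 0.39 ± 0.34 there (age difference -1.68 ± 0.49, adjusted p = 0.0465). Leaving out 1 library gave 2 to 4 lower and 1 to 5 higher, with the fewest calls without double-mutant library 2 of P0.

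The 5 highest age differences of the naming rule were in genes with a negative value at P14. Wfdc2, a secreted protease inhibitor, differed by 4.76 ± 0.72 (adjusted p = 6.96e-05), with -5.75 ± 0.59 at P14 and -0.97 ± 0.46 at P0. Trbc2 differed by 3.47 ± 0.42 (adjusted p = 2.55e-06), with -5.06 ± 0.34 at P14 and -1.57 ± 0.25 at P0. Ndn (necdin), a growth suppressor of quiescent stem cells, differed by 3.46 ± 0.34 (adjusted p = 9.12e-08), with -3.37 ± 0.26 at P14 and 0.1 ± 0.18 at P0. The P0 values of Ndn overlapped the wild type, with 35, 33.3, 20.8 and 31.5 CPM against 28, 27.3, 31.5 and 25.6. Cyp4b1 differed by 3.38 ± 0.74 (adjusted p = 0.00549), with -1.73 ± 0.55 at P14 and 1.68 ± 0.57 at P0, and St8sia1, a sialyltransferase, by 3.19 ± 0.47 (adjusted p = 5.21e-05), with -3.91 ± 0.37 at P14 and -0.71 ± 0.27 at P0. Of these P0 values only that of Trbc2 passed. Cyp4b1 was positive at P0 without passing (adjusted p = 0.2). Its call was lost without libraries 2 and 4 (adjusted p = 0.0658), and its difference was 2.63 without double-mutant library 2 and 4.06 without wild-type library 2 of P0. Wfdc2 was 4.17 without double-mutant library 2, and St8sia1 2.56 without libraries 2 and 4.

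The 5 lowest age differences by the naming rule were in genes with a positive value at P14. Mpeg1 differed by -3.45 ± 0.68 (adjusted p = 0.00173), with 0.85 ± 0.48 at P14 and -2.6 ± 0.57 at P0. Id3 differed by -3.05 ± 0.69 (adjusted p = 0.00793), with 0.52 ± 0.51 at P14 and -2.51 ± 0.32 at P0. Both were lower than the wild type at P0 and not at P14. Ms4a4c, a membrane protein of myeloid cells, differed by -3.35 ± 0.56 (adjusted p = 0.000268), with 2.51 ± 0.41 at P14 and -0.84 ± 0.29 at P0. Phf11c differed by -2.97 ± 0.39 (adjusted p = 7.87e-06), with 3.56 ± 0.29 at P14 and 0.6 ± 0.3 at P0, and Ly86 (MD-1), a Toll-like receptor accessory protein, by -2.91 ± 0.64 (adjusted p = 0.00549), with 2.15 ± 0.48 at P14 and -0.75 ± 0.47 at P0. For these 3 the P14 value was positive and the P0 comparison did not pass. All 5 passed without libraries 2 and 4, where Ly86 was -3.66, and in every fit that left out 1 library. Outside the naming rule Tcf7 had a lower value, -5.49 (adjusted p = 0.0284). Values side by side come from the P0 fit for P0 and from the fit of both ages for P14.

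**Figure D5:**
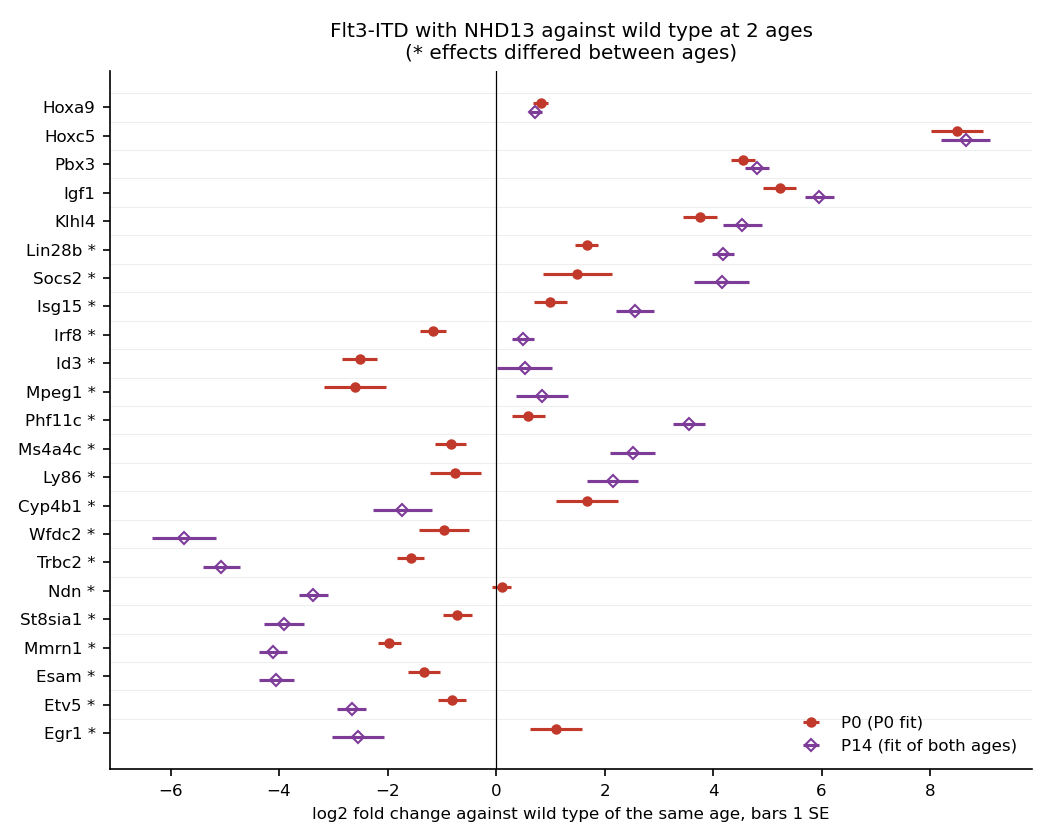
Log2 fold change of Flt3-ITD with NHD13 against wild type of the same age at P0 (filled circles) and P14 (open diamonds) for 23 genes, with bars of 1 SE and an asterisk where the effects differed between ages. Hoxa9, Hoxc5, Pbx3, Igf1 and Klhl4 have no asterisk, while Lin28b, Id3 and Ndn do.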

How the data were processed

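Progenitor RNA came from a Qiagen micro kit and libraries from Clontech reagents, per the labels' protocols. The authors deposited whole-number read counts per gene in 1 table per age, for which the submitters' processing notes name STAR 3.0.4, Subread and featureCounts 1.4.5. Build, annotation and strand setting are not given in the sources used here. From 40824 entries at P0, 276 identical repeats were dropped, and 4 further columns of that age, named for the double-mutant genotype with numbers that no sample's title carries, were not used. Another 4 samples labelled NHD13 at P0 were not analysed here. Gene coordinates come from GENCODE M21 (GRCm38), which matched 40254 of 40548 gene IDs. Counts were fitted with edgeR 4.0.16 in R 4.3.3 (TMM, filterByExpr, robust quasi-likelihood test, 1 mean per group) over the 12 P0 libraries and 14359 genes. The age difference used all 36 libraries. P-values were adjusted over all tested genes by Benjamini-Hochberg at 0.05. CPM use TMM library sizes. The fits were tested on simulated counts. DESeq2 1.42.0, RLE scaling, no filter, fewer groups, a sex term, a replicate block and each library left out were alternatives. Named genes are the targeted genes, the 14 highest and 14 lowest passing genes (5 for the other contrasts) with mean log2 CPM of at least 2, no overlap between groups and no predicted model, up to 6 passing and 3 other members of each of 26 lists, and HOX genes with counts; 1 gene under this rule is not reported here. Members, lists and named genes were chosen with earlier results of these data known. Counting intervals (95%) are exact and cover counting error only.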

Additional observations from a re-analysis of the deposited data

Results flagged for a closer look

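The effect of the labelled double mutant against the wild type differed between birth and P14, by the test of the difference itself, for 32 of the genes described here. Given as the log2 effect at P0 minus that at P14, it was higher at birth by 4.76 for Wfdc2, 3.62 for Egr1, 3.47 for Trbc2, 3.46 for Ndn, 3.38 for Cyp4b1, 3.19 for St8sia1, 2.71 for Esam, 2.14 for Mmrn1, 2.05 for Chil5, 1.91 for Mmp2, 1.85 for Slc27a6, 1.84 for Etv5, 1.58 for Hbb-bt, 1.52 for Ccr9, 1.51 for Tek, 1.13 for Klf6, 1.02 for Schip1 and 0.83 for Mllt3. It was lower at birth, with differences of -5.49 for Tcf7, -3.45 for Mpeg1, -3.35 for Ms4a4c, -3.05 for Id3, -2.97 for Phf11c, -2.91 for Ly86, -2.66 for Socs2, -2.52 for Lin28b, -1.68 for Mpo, -1.66 for Irf8, -1.61 for Treml1, -1.58 for Isg15, -1.41 for Cmpk2 and -0.86 for Myc. The genes were named with their values known, so their number is not a rate.

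In some groups of 4 libraries 1 library lay far from the other 3, for which chance alone flags about 1 in 20 groups, over 198 pairs of a gene and a group checked. Among the labelled double mutants these were P2ry12 in library 3 (0.315 CPM), Klf6 in library 2 (311 CPM), Il7r in library 1 (3.88 CPM), Itgb3 in library 1 (6.16 CPM) and Pf4 in library 4 (89.5 CPM). Among the wild type they were Igf1 in library 2 (14.4 CPM), Tent5a in library 3 (18.8 CPM), Depp1 in library 2 (14.3 CPM) and Cish in library 4 (18.6 CPM).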

How the results depend on the processing

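The 299 calls against the wild type kept their sign in every alternative that tested them. RLE scaling called 298 of them and DESeq2 298, while the fit of only the 2 groups tested 285 and called 188. DESeq2 gave 552 calls in all, 259 higher and 293 lower, and against Flt3-ITD 819, 443 higher and 376 lower. By list DESeq2 called 4 interferon-stimulated, 1 MHC, 1 MAPK, 1 immediate early, 11 stem cell, 6 lymphoid, 5 erythroid, 4 fetal, 1 mast cell, 4 dendritic, 3 hepatocyte, 2 endothelial, 2 progenitor identity and 3 targeted genes. Without libraries 2 and 4, chosen after seeing the data, the lists held 2 interferon-stimulated, 1 MHC, 3 STAT5, 0 megakaryocyte, 1 erythroid, 0 cell cycle, 2 progenitor identity and 2 targeted genes. There were then 247 calls against Flt3-ITD, 150 higher and 97 lower, and 377 age differences, 219 higher. Ndn against the wild type turned from 0.10 to -0.014 there, neither passing. Without the low-count filter 1 megakaryocyte and 1 erythroid gene passed. The fit of only the 2 groups called 196 genes, 85 of them lower, with 4 stem cell, 1 lymphoid, 1 megakaryocyte and 1 dendritic gene. With a sex term 1 interferon-stimulated, 2 progenitor identity and 2 targeted genes passed. The age fit of only the 4 groups called 226 genes, 149 higher and 77 lower. Of the genes named without a call against the wild type, DESeq2 called 17: Flt3, Nup98, Hoxb5, Il7r, H2-Eb1, Sparc, Naaa, Isg15, Spry2, Klf6, Tek, Arid3a, Igf2, Hbb-bt, Hbb-bs, Hba-a1 and Hba-a2. Calls named in the text that ended were those of Adora2b, S1pr3, F5, Esam, Itga2b, Itgb3, Tcf7, Notch1, Siglech, Hoxa7 and Mllt3 in the fit of only the 2 groups (adjusted p from 0.0545 to 0.133) and of Depp1, Col18a1, Itga2b, Itgb3, Tcf7 and Mllt3 without the low-count filter (0.0525 to 0.135), with that of Tcf7 also under the sex term (0.0636). Against Flt3-ITD, the calls of Cyp4b1 and H2-Eb1 ended without the low-count filter (adjusted p = 0.0602 and 0.0981). Apart from fewer samples or genes in a fit, the cause of these changes was not tested.

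With the replicate block there were 363 calls, 185 higher and 178 lower, with 4 interferon-stimulated, 5 lymphoid, 1 megakaryocyte, 2 erythroid and 1 endothelial gene. Of the genes named without a call, 10 passed with it, Hoxb5 (adjusted p = 0.0236) and Il7r (0.0143) among them. The deviations of same-numbered labelled double-mutant and wild-type libraries correlated by 0.24, 0.42, -0.15 and -0.05, so the numbers do not show a pairing, and not every library correlated best with its own number.

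Leaving out 1 library gave 188 (without wild-type library 4) to 315 (without double-mutant library 2) calls against the wild type, 100 to 169 higher and 88 to 162 lower. Against Flt3-ITD it gave 204 to 567 calls, 126 to 322 higher and 78 to 245 lower. The age difference had 399 to 858 calls, 264 to 490 higher and 135 to 388 lower. By list the ranges were 0 to 3 interferon-stimulated, 0 to 2 MHC, 0 to 1 STAT5, 3 to 8 stem cell, 1 to 2 lymphoid, 0 to 3 megakaryocyte, 0 to 2 erythroid, 0 to 1 cell cycle, 0 to 1 inhibitor, 0 to 1 mast cell, 0 to 1 macrophage, 1 to 4 dendritic, 0 to 1 endothelial, 1 to 2 progenitor identity and 1 to 2 targeted genes. Hoxb4, at -0.06 with no call, was 0.10 without double-mutant library 1, 0.02 without double-mutant library 4 and 0.12 without wild-type library 4, with a range of -0.23 to 0.12. Depth limits the HOX genes near 0 in the wild type, whose ratios rest on 1 to 9 wild-type counts.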
